A study of Avicennia germinans with 18 samples.

Results

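Leaves of Avicennia germinans seedlings from an arid forest were compared with leaves of seedlings from a humid forest, using every transcript of the deposited count table. The comparison holds 6 of the 18 libraries of the series, 3 humid and 3 arid leaves chosen by their labels, each from a different seedling. The table lists 47821 transcripts, of which 33874 had enough leaf reads to be tested and 1724 had no read in any leaf. All seedlings germinated and grew in their forest, and the labels give no age beyond the seedling stage and no genotype. Per the protocols, both groups then spent 72 hours in 3 L pots with soil from a mangrove, in shade and with ample water, before harvest. Another label describes the samples as taken in the field. The forests differed in freshwater supply, salt, irradiance and temperature together, and these factors cannot be told apart here.

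A. germinans, the black mangrove, is a tree of tropical tidal shores. Its roots hold back much of the salt of the water they take up, and its leaves secrete part of the rest through salt glands on the leaf surface. Leaves are also where water is lost through stomata and where light is harvested, so they are the organ in which salt, drought and irradiance meet. The files pair no identifier with a gene name, so transcripts are given by identifier and no function can be assigned to them. Photosynthesis or stress genes could not be looked up for the same reason.

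Leaf libraries held 9.12, 7.15 and 23.7 M reads in humid leaves 1, 2 and 3 and 7.42, 15.7 and 16.8 M reads in arid leaves 1, 2 and 3. The summed totals of the forests were close, at 39.96 M humid and 39.94 M arid reads. On the first principal component of log2 CPM (CPM, read counts scaled to one common library size), which held 42.2% of the variance, humid leaf 1 stood apart at -190.9, while arid leaf 3 was farthest on the other side at 132.2. Humid leaf 3 lay at 26.8, above humid leaf 2 at -36.2 and between arid leaf 1 at 21.3 and arid leaf 2 at 46.8. On the second component, with 20.6% of the variance, humid leaves 1, 2 and 3 lay at 6.1, -88.5 and -45.9. Arid leaves 1 and 2 were far from humid leaf 3 there, at 99.4 and 79, and arid leaf 3 was near it at -50.1. In log2 CPM across transcripts, themselves no independent replicates, humid leaf 3 correlated as closely with arid leaf 3 (Pearson's r 0.927) as with humid leaf 2 (0.922), and less with humid leaf 1 (0.868). After thinning all leaves to the depth of the shallowest, these values were 0.907, 0.909 and 0.863. Humid leaf 1 had the highest level of the 6 leaves for 23.2% and the lowest for 27.2% of the tested transcripts, humid leaf 3 for only 6.66% and 5.89%. Each of the 6 leaves deviated from the mean leaf most like the stem of its own seedling deviated from the mean stem. For roots this held for 4 of 6 leaves, the exceptions being humid leaf 1, closest to humid root 3, and humid leaf 3, closest to arid root 3.

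The labelled organ was checked on transcripts typical of humid leaves, those with a mean of 50 CPM or more there that were 20-fold or more below it in humid roots. Their median level in arid leaves 1, 2 and 3 was 87.4%, 111% and 143% of the humid leaf mean, over 251 transcripts. For humid leaves 1, 2 and 3 the list and the mean were taken from the other humid seedlings, which gave 66.3%, 69.7% and 119%. Transcripts typical of roots stayed between 0.213% and 1.5% of their humid root mean in all 6 leaves. By these lists all leaf libraries were told apart from roots. Neither list sets leaf apart from stem, and transcripts chosen for that are described under other observations.

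The first question was which transcripts differed between the forests in leaves. One transcript, Ag_14585, fell in arid leaves by the quasi-likelihood test of edgeR, fitted on the 6 leaf libraries with p-values adjusted over all transcripts, and none rose. That is 0.00295% of the 33874 tested. At an unadjusted p under 0.05 there were 2579 transcripts (7.61%), 973 higher and 1606 lower in arid leaves. In 4886 transcripts (14.4%) the 3 libraries of one forest lay entirely above the 3 of the other, with arid leaves above in 2270 and below in 2616. The typical difference was small against its error. The median absolute log2 fold change of all tested transcripts was 0.39 and the median standard error (SE) 0.50. A second method, DESeq2, called 554 transcripts (1.64%) at an adjusted p under 0.05, 83 higher and 471 lower. All 554 had an unadjusted edgeR p under 0.05, and in 545 of them the groups did not overlap. Bulk libraries such as these cannot tell fewer cells of a type from less RNA per cell.

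**Figure D1:**
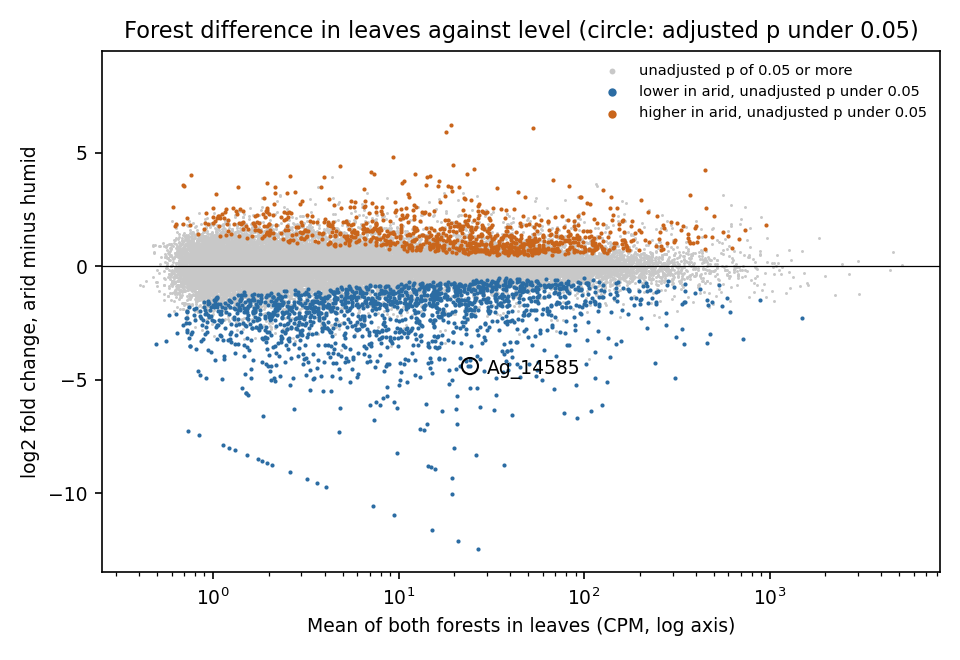
The log2 fold change of arid minus humid leaves (vertical axis) is plotted against the mean level of both forests in CPM (horizontal log axis) for each of the 33874 tested transcripts, with the 973 higher and 1606 lower transcripts at an unadjusted p under 0.05 in colour. The lower side reaches much larger changes than the higher side, and the only transcript past the adjusted threshold, Ag_14585, is circled. The points in a diagonal line at the lower left have no read in any arid leaf, and their fitted values depend on the prior count.

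Ag_14585 was at 47.5, 56.7 and 34.9 CPM in humid leaves 1, 2 and 3 and at 2.0, 2.29 and 2.24 CPM in arid leaves 1, 2 and 3. The arid values, from 16, 33 and 37 reads, hardly varied, and the lowest humid leaf was far above the highest arid one. The means were 46.4 ± 10.9 CPM and 2.18 ± 0.152 CPM (SD, n = 3 each), a 21.3-fold lower level in arid leaves. The log2 fold change of -4.40 had an SE of 0.31 and an adjusted p of 0.0435 by edgeR. This call was lost, at a log2 fold change between -4.43 and -4.24, when any single leaf library other than humid leaf 3 was left out (edgeR adjusted p up to 0.52). It was also lost after thinning to the shallowest leaf (edgeR adjusted p 0.14) and when all 18 libraries shared one fit (log2 fold change -4.35, SE 1.42), while DESeq2 gave an adjusted p of 6.1e-26.

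In stems of the same seedlings Ag_14585 ranged from 0.79 to 13.3 CPM in the humid and from 0 to 10.6 CPM in the arid forest, and the forests overlapped. In roots it was at 25.3, 4.31 and 58.6 CPM in humid libraries 1, 2 and 3 and at 2.59, 1.19 and 0 CPM in arid ones. All arid roots lay below all humid roots, and the root libraries gave a log2 fold change of -4.57, with an SE of 1.20 and an adjusted p by edgeR of 0.11. The root difference was close in size to that of leaves, but with an SE several times as large. The leaf log2 fold change minus the root one was 0.20 on the log2 scale (SE 1.77).

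Ag_20133 had the next smallest p among the lower transcripts. It was at 136, 101 and 109 CPM in humid leaves 1, 2 and 3 and at 16.1, 17.4 and 23.6 CPM in arid leaves 1, 2 and 3. The groups were far apart, with 6.06-fold less in arid leaves (log2 fold change -2.60, SE 0.27), but the edgeR adjusted p of 0.31 did not pass the threshold. Humid stems had 8.43 ± 3.3 CPM and arid stems 4.58 ± 3.1 CPM, and humid and arid roots had 38.9 ± 15.6 and 22.9 ± 25.8 CPM (SD, n = 3 each). Stem and root levels overlapped between the forests. The test of a larger difference in leaf than in stem or root did not pass (edgeR adjusted p 0.74 and 0.69).

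On the higher side, Ag_16874 was at 14.9, 16.6 and 17.6 CPM in humid leaves 1, 2 and 3 and at 45.1, 50.3 and 41.1 CPM in arid leaves 1, 2 and 3. Its values within a forest were close together, and the mean was 2.78-fold higher in arid leaves (log2 fold change 1.47, SE 0.23, edgeR adjusted p 0.38). Stems showed the same direction without overlap, with 5.2, 4.15 and 4.65 CPM in humid and 11.1, 44.9 and 10.9 CPM in arid stems 1, 2 and 3. In roots the forests overlapped, at 6.06 ± 3.72 CPM humid and 9.62 ± 1.99 CPM arid (SD, n = 3 each).

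Ag_1845 was at 14.2, 12.7 and 18.6 CPM in humid leaves 1, 2 and 3 and at 40.7, 44.4 and 36.0 CPM in arid leaves 1, 2 and 3. This was a 2.66-fold higher mean (log2 fold change 1.41, SE 0.26, edgeR adjusted p 0.41), again with no overlap. Arid stems, between 20.6 and 46.8 CPM, also lay above humid stems, between 5.2 and 13.9 CPM. Root values overlapped. DESeq2 called both Ag_16874 and Ag_1845 in leaves, with adjusted p of 2.3e-05 and 0.0012.

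**Figure D2:**
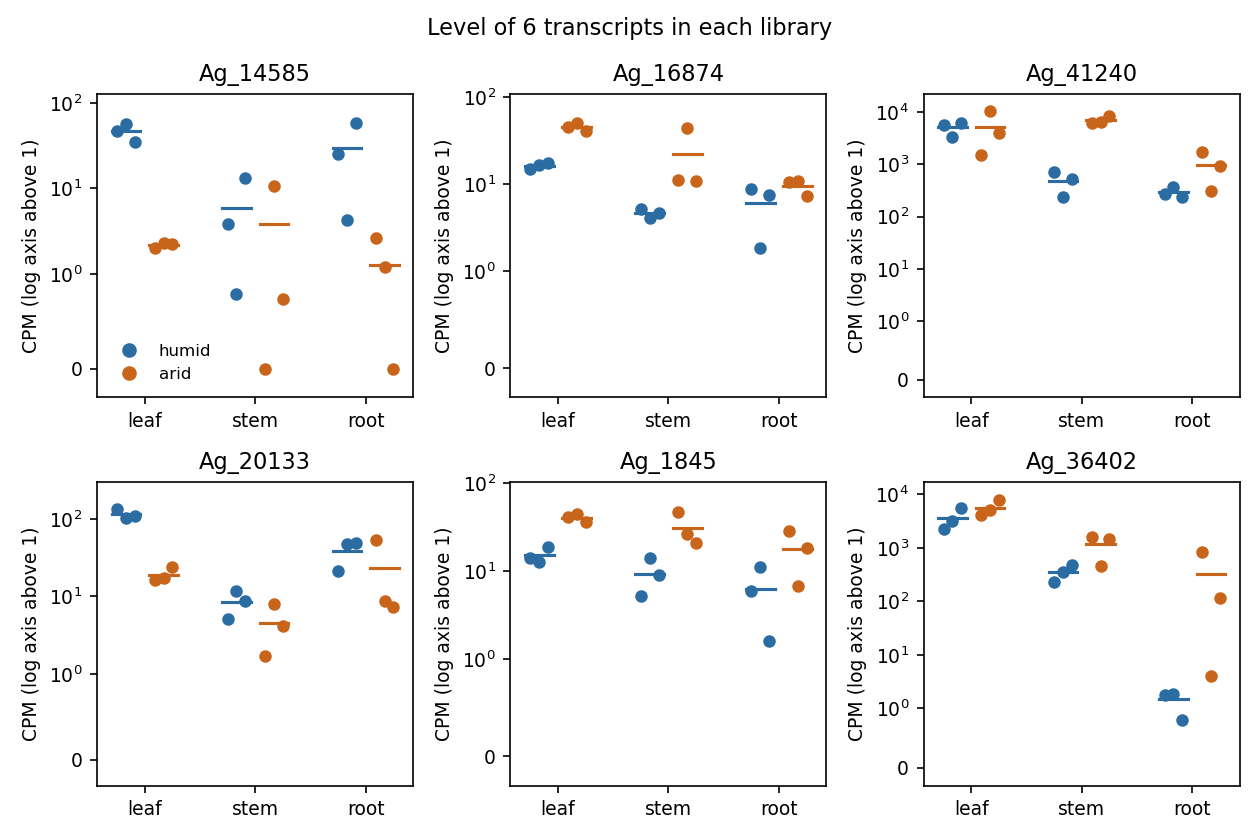
Level in CPM (vertical axis, logarithmic above 1) of 6 transcripts in the 3 humid and 3 arid libraries of leaf, stem and root, with a bar at each mean and levels scaled within each organ. Ag_14585 and Ag_20133 are separated downwards and Ag_16874 and Ag_1845 upwards in arid leaves, while the abundant Ag_41240 overlaps in leaves and is separated in stems.

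The large differences were almost all towards a lower level in arid leaves. A fitted difference of at least 16-fold was found for 177 transcripts lower and 13 higher in arid leaves. Of the 177, 176 had all humid above all arid leaves and 150 were called by DESeq2, whereas 7 of the 13 did not overlap and 4 were called by DESeq2. Over all tested transcripts, in either direction, 14.4% did not overlap and 1.64% were called by DESeq2. Those 177, like the 13, were chosen by their leaf values, so their leaf levels, overlap and DESeq2 calls are a description. Arid reads were present for 158 of them, and each of the other 19, with no read in any arid leaf, was at least 16-fold lower against a floor of 3 counts over the summed arid leaves (at least 19.3-fold to at least 691-fold).

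Most of these 177 transcripts ran in the same order among the humid leaves, with leaf 1 above 2 above 3 for 123 of them. On a scale set over all 18 libraries, their median level was 34.0 CPM in humid leaf 1, 12.3 in humid leaf 2 and 5.6 in humid leaf 3, against 0.517, 0.294 and 0.135 CPM in arid leaves 1, 2 and 3. Humid leaf 1 was the highest of all leaves for 138 of the transcripts, humid leaf 2 for 39 and humid leaf 3 for none. Over all tested transcripts these leaves were the highest for 23.2%, 16.9% and 6.66%. Because the 177 were chosen on these same leaves, their order and this split are a description. They took up 1.22%, 0.659% and 0.224% of the reads of humid leaves 1, 2 and 3, and between 0.0123% and 0.0371% in arid leaves. No single transcript held more than 10.4% of this share in a humid leaf. Humid leaf 3, which correlated closely with the arid leaves over all transcripts, was thus also the nearest to them here. Within each forest, the median level of root-typical transcripts moved in the same order. They were at 1.5%, 1.16% and 0.609% of the humid root mean in humid leaves 1, 2 and 3 (81, 89 and 45 transcripts). Arid leaves 1, 2 and 3 were at 0.906%, 0.632% and 0.213% (62 transcripts). Lists and humid means differed between the humid leaves and from those used for arid leaves, so these values are not on a common scale. By share of reads the order held in humid leaves, at 0.05%, 0.0468% and 0.0116%. It did not hold in arid leaves 1, 2 and 3, at 0.0282%, 0.107% and 0.00472%. Across forests, with the same limit of scale, the order differed. Humid leaf 3 was below arid leaves 1 and 2 for root-typical transcripts, but above all arid leaves for the 177. The part of root RNA in the levels of the 177 transcripts was not tested. Their median was higher in humid leaves 1 and 2 than in any root library, and in humid leaf 3 it was below humid root 3 and arid root 1.

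In stems and roots, whose values did not choose them, the same 177 transcripts were less separated. Their median was 1.20, 2.0 and 0.807 CPM in humid stems 1, 2 and 3 and 0.586 and 0.305 CPM in arid stems 2 and 3. In arid stem 1 only 86 of the 177 had any read, so its median was at the floor of detection. By median, humid stems thus lay above arid ones, at low levels. By share of reads the forests overlapped, with arid stem 2 at 0.126% above humid stems 2 and 3 at 0.108% and 0.104%. Humid roots 1, 2 and 3 had medians of 5.56, 4.49 and 8.15 CPM and arid roots 8.55, 1.48 and 0.723 CPM, where arid root 1 was above all humid roots. By share of reads arid root 1, at 0.316%, was above only humid root 2. Humid roots 1, 2 and 3 held 0.385%, 0.301% and 0.604%. In these medians the order of the humid leaves was not repeated, since seedling 2 was highest in stems and seedling 3 in roots. By share of reads that order was repeated in humid stems 1, 2 and 3, at 0.158%, 0.108% and 0.104%, but not in roots. A single transcript held 31.5% of the share of humid stem 1.

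**Figure D3:**
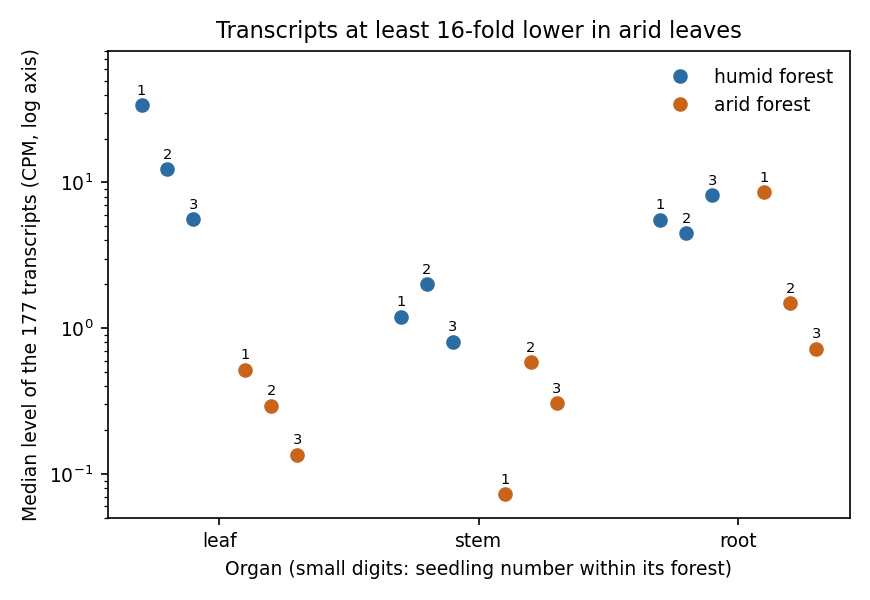
Median level in CPM (log axis, scaled over all 18 libraries) of the 177 transcripts that were at least 16-fold lower in arid leaves, one point per library, with the seedling number within its forest. Humid leaves fall from 34.0 to 5.6 CPM and all arid leaves are below 0.6 CPM, while in roots arid seedling 1 at 8.55 CPM is above all 3 humid seedlings.

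Transcripts present in the leaves of one forest only were as one-sided, and some of them belong to the 16-fold group. With at least 10 reads in each leaf of one forest and none in any leaf of the other, 30 transcripts were found for the humid and 0 for the arid forest. With at least 1 read the numbers were 126 and 17, with at least 5 reads 49 and 2, and with at least 20 reads 9 and 0. Of the 30, 17 had enough reads to be tested, and these are among the 19 of the 16-fold group without arid leaf reads. The rest of the 30 were not tested. The prefix non_cod was carried by 12 of the 30, and the median level of the 30 in humid leaves was 3.18 CPM. Only 2 of the 30 also had no read in any arid stem or root, so the others were present in some organ of the arid seedlings.

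The excess of lower transcripts depended on level. Tested transcripts were divided into 4 classes of equal size by mean level. In the lowest class, with a mean of up to 2.21 CPM, 90 were higher and 275 lower at an unadjusted p under 0.05. In the next class 161 were higher and 423 lower, and in the third 293 and 483. In the highest class, above 28.1 CPM, the sides were about even, with 429 higher and 425 lower. The median SE of the log2 fold change fell from 0.74 in the lowest to 0.31 in the highest class, and the share at an unadjusted p under 0.05 grew from 4.31% to 10.1%. Low transcripts were thus measured with the larger error and were the more one-sided.

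Of the tested transcripts 26.7% carried the prefix non_cod, which the labels do not explain, as did 67 of the 554 called by DESeq2. At an unadjusted p under 0.05 there were 482 of 9055 with the prefix (5.32%) and 2097 of 24819 without it (8.45%). The former also had a lower median level, 2.07 against 14.0 CPM, and a larger median SE, 0.63 against 0.43 on the log2 scale. Their share of all leaf reads was 8.89 ± 0.391% in humid and 8.57 ± 0.404% in arid leaves (SD, n = 3 each), with overlapping values (exact two-sided permutation p 0.5, adjusted over 3 such measures 0.9). The 100 most abundant transcripts of a library held 12.7 ± 1.16% of humid and 12.1 ± 1.79% of arid leaf reads (exact permutation p 0.8). At equal depth 41942 ± 1771 transcripts were detected in humid and 41595 ± 293 in arid leaves (exact permutation p 0.9). With 3 libraries against 3 this test cannot go below 0.1.

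Single libraries carried much of the count of higher transcripts and less of the count of lower ones. Leaving out each leaf in turn gave between 1262 and 1899 lower transcripts at an unadjusted p under 0.05, but between 349 and 1726 higher ones. Without humid leaf 3 the sides were even, at 1726 higher and 1712 lower, and 3 transcripts were called by edgeR at an adjusted p under 0.05. The higher transcripts numbered 533 without humid leaf 1, 349 without humid leaf 2 and 529 without arid leaf 2. The excess of lower over higher transcripts at this threshold was therefore not seen without humid leaf 3. In spread, measured as the biological coefficient of variation on the tested transcripts, humid leaves had 48.8% and arid leaves 53.3%. Without humid leaf 1 the humid value was 35.8%, the largest change made by leaving out any leaf.

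**Figure D4:**
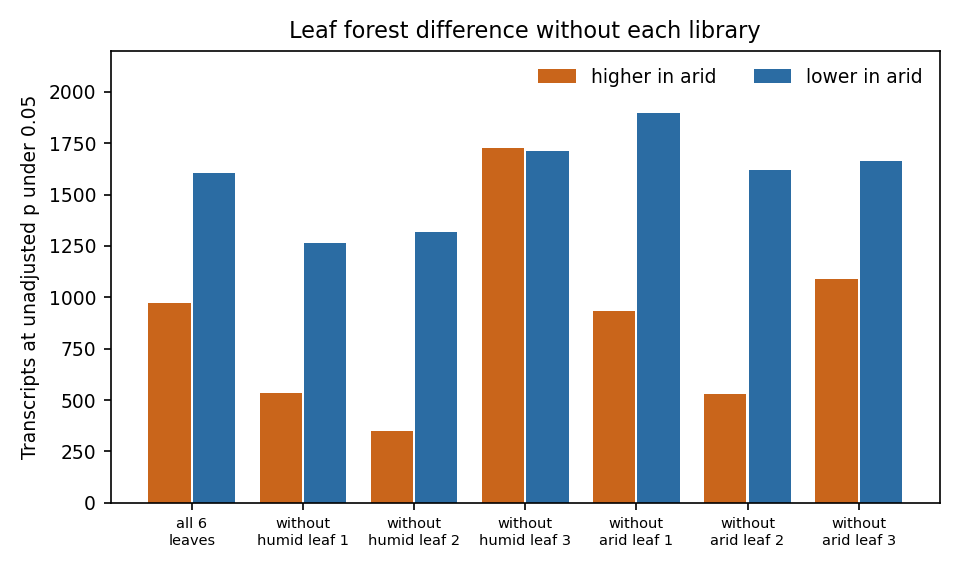
Bars give the number of transcripts higher or lower in arid leaves at an unadjusted edgeR p under 0.05 (vertical axis, from 0) with all 6 leaves and without each leaf library. The lower count stays between 1262 and 1899, whereas the higher count moves between 349 and 1726 and exceeds the lower one, by a little, only without humid leaf 3.

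The pair of most abundant leaf transcripts overlapped between the forests. Ag_41240 had the highest mean over the 6 leaves, at 5631, 3332 and 6204 CPM in humid leaves 1, 2 and 3 and at 1525, 10198 and 4040 CPM in arid leaves 1, 2 and 3. The arid leaves covered the whole humid range, and the fitted log2 change was 0.06, with an SE of 0.72 and an adjusted p by edgeR of 0.99. Humid stems 1, 2 and 3 of the same seedlings had 707, 242 and 514 CPM and arid stems 6135, 6344 and 8468 CPM. Arid stems were thus all far above humid stems, with a 14.3-fold higher mean (log2 fold change 3.84, SE 0.63), which edgeR did not call over stem libraries (adjusted p 0.13) and DESeq2 did (8.6e-13). The leaf difference minus the stem difference was -3.81 on the log2 scale (SE 0.94, unadjusted edgeR p 0.00086), which did not pass adjustment over all transcripts (0.37).

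Ag_36402, the next most abundant, was at 2289, 3172 and 5512 CPM in humid and 4047, 5160 and 7690 CPM in arid leaves 1, 2 and 3. These ranges overlapped (log2 fold change 0.62, SE 0.52, edgeR adjusted p 0.82). Humid roots 1, 2 and 3 had 1.75, 1.85 and 0.797 CPM, and arid roots 843, 3.98 and 116 CPM, so arid roots 1 and 3 were far above all others. With means of 3658 CPM in humid leaves and 1.46 CPM in humid roots, Ag_36402 itself meets the rule for leaf-typical transcripts. The level of that class moved in the same order over the arid roots, which is no separate observation. Over the 251 defined above, their median was 52.8%, 2.05% and 11.5% of the own leaf in arid roots 1, 2 and 3. Over the lists made without the own seedling, of 218 to 291 transcripts, it was at most 1.8% in humid roots. Their part in the root values of Ag_36402 was not tested.

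A further question was whether the transcripts that differed most in leaves differed in the same direction in the other organs. Stems and roots are other libraries of the same 6 seedlings, so this is no check on further plants. Of the transcripts higher in arid leaves at an unadjusted p under 0.05, 935 were also tested in stems, and 88.4% of them were higher in arid stems, against 52.5% of the 31584 transcripts tested in both organs. Of those lower in arid leaves, 73.9% of 1373 were lower in arid stems, against 47.5% of all. An unadjusted p under 0.05 in stems with the same direction was found for 378 (40.4%) of the leaf-higher and 309 (22.5%) of the leaf-lower transcripts. The corresponding shares of all transcripts were 7.82% and 6.72%. The opposite direction at that p was found for 9 of the leaf-higher and 36 of the leaf-lower transcripts.

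In roots 77.6% of 872 leaf-higher transcripts were higher in the arid forest, against 52.7% of the 29029 tested in both, and 73.3% of 1376 leaf-lower transcripts were lower, against 47.3%. An unadjusted p under 0.05 in the same direction was found for 296 (33.9%) and 342 (24.9%) of them, where the shares of all transcripts were 10.6% and 7.95%. Without arid root 1, the shares in the same direction were 81.0% for the leaf-higher and 79.9% for the leaf-lower transcripts. Arid root 3, whose leaf-typical transcripts were at 11.5% of its own leaf, remained in that fit. The part of leaf-typical transcripts in these shares was not tested. When single root libraries were left out, the same-direction shares ranged from 66.5% to 81.0%. When single stem libraries were left out, those of stems ranged from 69.1% to 89.4%. The shares at an unadjusted p under 0.05 moved more. For leaf-lower transcripts the share was 16.4% in roots without humid root 3, and in stems 15% without humid stem 3 and 33.8% without arid stem 2. The leaf libraries that chose the transcripts were not left out here.

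**Figure D5:**
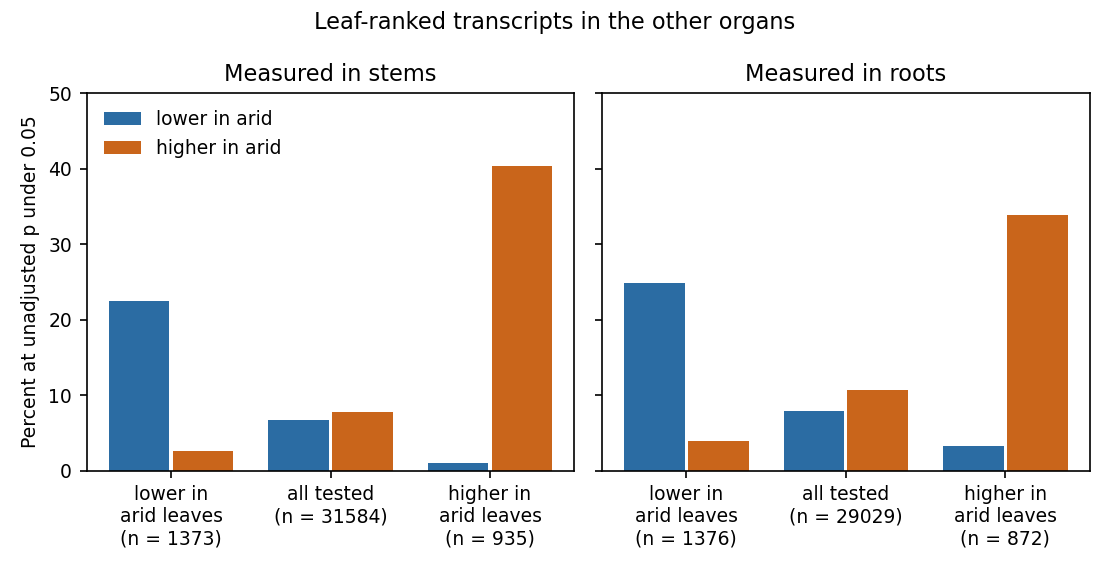
Bars give the percent of transcripts that were lower or higher in arid stems (left) and arid roots (right) at an unadjusted p under 0.05 (vertical axis, from 0), for transcripts lower in arid leaves, for all transcripts tested in both organs and for transcripts higher in arid leaves, each leaf group at an unadjusted p under 0.05. Leaf-higher transcripts reach 40.4% higher in stems and 33.9% in roots, and leaf-lower ones 22.5% and 24.9% lower.

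Of the 28372 transcripts tested in all 3 organs, 2016 had arid leaves entirely above and 2099 entirely below humid leaves. All 9 arid libraries were separated from the humid libraries of the same organ in the same direction for 292 higher and 144 lower transcripts. Separation in leaves with the opposite separation in stem or root was found for 137 of the leaf-higher and 158 of the leaf-lower transcripts. Leaves alone were separated for 908 higher and 1073 lower ones. Over all transcripts tested in both leaf and stem, arid stems lay entirely above humid stems in 10.7% and entirely below in 13.4%. For roots, over all transcripts tested in both leaf and root, these shares were 14.2% and 11.3%.

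Whether the forest difference itself differed between leaf and another organ was tested in a fit of all 18 libraries. Against stem, edgeR passed 0 of 40897 transcripts (0%) at an adjusted p under 0.05. Before adjustment 2974 (7.27%) had a p under 0.05, and the number for DESeq2 after adjustment was 276. Against root, edgeR passed 0 (0%) as well, with 3146 (7.69%) before adjustment and 447 for DESeq2. Fitting the seedling as a block left both edgeR counts at 0. The edgeR counts rested on single libraries, with 163 for stem without arid stem 2 and 218 for root without arid root 2, and at most 2 without any other library. No transcript can therefore be named whose forest difference was particular to leaves by the edgeR test of all libraries.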

How the data were processed

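RNA was sequenced in 18 libraries of 6 seedlings, 3 per forest and organ. Libraries were made from 0.5 µg of total RNA, per the labels' protocols. The authors deposited raw read counts per transcript, uniquely mapped as the table's name states. Bowtie 0.12.2 and edgeR are named in the submitters' processing notes, and the reference transcriptome is not given in the sources used here. Without its sequences, reads shared by near-identical transcripts could not be assessed, and antisense overlap was not assessed. All columns matched a sample by name.

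Leaf libraries were fitted alone with edgeR 4.0.16 under R 4.3.3 (quasi-likelihood test, trimmed mean of M-values scaling). Tested transcripts reached the CPM of 10 reads at the median library size in as many libraries as the smaller group held. Their total count was at least 15. Fitting organs separately avoids treating organs of 1 seedling as independent. The same procedure was run on stems and on roots. P-values were adjusted by the Benjamini-Hochberg method at a threshold of 0.05. SEs were derived from the log2 fold change and its F statistic. DESeq2 1.42.0 was an alternative, and other scalings, filters, thinning, blocks and omitted libraries were tried. The fits were tested on simulated data. Organ-typical lists used a pseudocount of 0.1 CPM. A count of 0 allowed up to 3 counts, between 0.127 and 0.42 CPM per leaf, for counting error only. At least 99.3% of the reads of every leaf fell on tested transcripts. Replicate counts differed by more than sampling noise (chi-square per degree of freedom of at least 32.3).

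Same-numbered leaves of the 2 forests are different seedlings, and their deviations from the forest means correlated at 0.19, -0.09 and 0.40. Leaf and stem of 1 seedling correlated between 0.19 and 0.34 within a forest, and leaf and root between -0.08 and 0.25. The transcripts named are the 2 higher and 2 lower with the smallest p among those of at least 5 CPM without overlap, and the 2 most abundant. Lists, groups and rules were chosen with earlier results of these data known. The 16-fold group, the counts of transcripts without reads and the omission of single stem or root libraries were added after the leaf values were seen.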

Additional observations from a re-analysis of the deposited data

How the results depend on the processing

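The count of transcripts called between forests in leaves was 1 by edgeR, and it was also 1 under DESeq2 size factors within edgeR, upper quartile scaling, no filter on low counts and a minimum count of 50. It was 0 with all 18 libraries in the fit, 0 after thinning to the shallowest leaf, 0 with the replicate number as a block, 554 by DESeq2, and 0 to 3 without single leaves (3 without humid leaf 3). The numbers do not pair leaves of different seedlings. For leaf minus stem the count of 0 became 276 by DESeq2 and 0 to 163 without single libraries. For leaf minus root it became 2 under upper quartile scaling, 447 by DESeq2 and 0 to 218 without single libraries. Both stayed at 0 when seedlings entered as a replicate block. The arid minus humid difference in the percent of reads on the 100 most abundant transcripts ranged from -1.24 to 0.45 without single leaves, and that in detected transcripts from -1367 to 228. The log2 fold change of Ag_41240 was -0.34 under the replicate block and ranged from -0.86 to 0.50 without single leaves. The 5 other named transcripts kept their sign in all 14 alternatives. The cause of these changes was not tested. Depth limits the low transcripts most, since the shallowest leaf had 7.15 M reads.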

Other observations

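Leaves were also compared on transcripts that set leaf and stem apart. Those with a humid leaf mean of 50 CPM or more, 5-fold or more above the humid stem mean, had a median level in arid leaves 1, 2 and 3 of 35.8%, 49.2% and 53.7% of the humid leaf mean, over 323 transcripts. For humid leaves 1, 2 and 3, with lists made from the other humid seedlings, the values were 121%, 53.4% and 57.7%. These lists held 215, 427 and 388 transcripts, so the values of the forests are not on one scale. Whether the forests overlapped can therefore not be read from them, with arid leaf 3 at 53.7% and humid leaf 2 at 53.4%. Stem-over-leaf transcripts, defined likewise, were at 17.3%, 10.5% and 11.5% of the humid stem mean in arid leaves 1, 2 and 3 and at 5.88%, 18.9% and 18.05% in humid leaves 1, 2 and 3. Humid leaf 1 had the lowest of these and the highest leaf-over-stem value.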
